A study of Mus musculus with 8 samples.

Results

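The transforming growth factor beta (TGF-β) genes described here are the 3 ligand genes *Tgfb1*, *Tgfb2* and *Tgfb3*, the 3 receptor genes *Tgfbr1*, *Tgfbr2* and *Tgfbr3*, and the 3 associated genes *Tgfb1i1*, *Ltbp2* and *Smad7*. They were chosen by gene symbol as rows of the expression table, and all 9 symbols were found among its 18990 genes. All 9 also passed the filter of a mean of at least 1 CPM (reads on a gene scaled to library size), which left 13866 genes for testing. The values come from RNA-seq of mouse embryonic fibroblasts (MEFs) on the way to induced pluripotent stem cells. Primary wild-type MEFs of the BL6 strain at passage 2 were infected with the lentiviral tet-STEMCCA cassette, which encodes OCT4, SOX2, KLF4 and MYC, together with the transactivator rtTA. The cells were transfected with 40 nM of pooled siRNA against *Ncor1*, which encodes a nuclear receptor corepressor, or against *Oct4* (*Pou5f1*), and were collected on day 3 or day 6 of reprogramming. The 4 groups, *siNcor1* and *siOct4* on each day, hold 2 biological replicates each. Cells of every group also received doxycycline at 2 µg/mL to switch the cassette on, LIF, chiron at 3 µM, ascorbic acid at 50 µg/mL and Alk5i at 0.25 µM. Alk5i inhibits the kinase of the type I TGF-β receptor, the product of *Tgfbr1*, so these genes were measured in all 8 libraries with receptor signalling under an inhibitor. The non-targeting control was not analysed here, and the comparisons set the knockdowns or the days against each other.

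TGF-β ligands are secreted in a latent form bound to their own propeptide and to matrix proteins, and they act after release by binding the type II receptor TGFBR2, which then activates the type I receptor TGFBR1. The activated type I receptor phosphorylates SMAD2 and SMAD3, which enter the nucleus with SMAD4, and among the genes they induce is the inhibitor *Smad7*. In fibroblasts the pathway drives matrix and contractile genes, and inhibitors of TGFBR1 are common supplements of reprogramming medium because the pathway favours the mesenchymal state.

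On GRCm38 (mm10) the GENCODE annotation places the ligand genes at chr7:25687002-25705077 (*Tgfb1*), chr1:186622792-186705989 (*Tgfb2*) and chr12:86056745-86079041 (*Tgfb3*). The receptor genes lie at chr4:47353222-47414931 (*Tgfbr1*), chr9:116084293-116175360 (*Tgfbr2*) and chr5:107106570-107289629 (*Tgfbr3*). *Tgfb1i1* is at chr7:128246812-128255699, *Ltbp2* at chr12:84783212-84876532 and *Smad7* on chromosome 18, and all 9 are annotated as protein-coding.

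Each library held between 7735742 and 16445192 reads on genes, and the fewest reads behind any value of the 9 genes were 138, for *Tgfbr1* in replicate 1 of the libraries labelled *siOct4* at day 6. The non-coding gene *Gm26917* took 15.5% to 16.6% of the reads at day 3 and 20.3% to 29.1% at day 6. *Ncor1* was at 7.14 log2-cpm in *siNcor1* and 7.88 in libraries labelled *siOct4* at day 3 (difference 0.74, adjusted p = 0.0139 by limma), but at day 6 its difference was −0.04 (adjusted p = 0.815 by limma). For *Pou5f1* the difference at day 3 was −0.08 and did not pass the test (adjusted p = 0.941 by limma). At day 6 *Pou5f1* went against the label, with levels 1.78 higher on the log2 scale in libraries labelled *siOct4* (adjusted p = 0.00011 by limma). Cassette transcripts and those of the endogenous gene cannot be told apart in these values. The summed level of 7 fibroblast markers was 5459 to 5566 CPM in *siNcor1* and 7890 to 9327 CPM in libraries labelled *siOct4* at day 3, and 3389 to 3657 CPM and 1834 to 1964 CPM at day 6. *Col1a1* and *Col1a2* made up most of that sum, and the other markers did not all follow it. From day 3 to day 6 in *siNcor1*, *Dcn*, *Lum*, *Thy1* and *Pdgfra* were higher without overlap, and *Col1a1* and *Col1a2* were lower. In libraries labelled *siOct4*, *Dcn* and *Lum* were higher without overlap. There *Col1a1*, *Col1a2* and *Pdgfrb* were lower, 3 of the 7 beside 42.1% of all genes. Between the knockdowns at day 3, *Col1a1*, *Col1a2*, *Thy1* and *Pdgfrb* were higher without overlap in libraries labelled *siOct4*, and *Pdgfra* was lower. Shares over all genes are not given for day 3, for *siNcor1* over time or for the rises, so those are descriptions. At day 6, 5 of the 7 were lower there without overlap, beside 34.8% of all genes. For 5 epithelial markers the sums were 53.3 to 55.0 CPM and 15.4 to 17.3 CPM at day 3, and 639 to 673 CPM and 270 to 298 CPM at day 6. The sums for 5 pluripotency markers were at most 1.36 CPM at day 3, 52.9 to 55.7 CPM in *siNcor1* at day 6 and 20.5 CPM in both libraries labelled *siOct4* at day 6. Macrophage markers (3 of 5 in the table) summed to 4.35 to 10.0 CPM, endothelial markers (4 of 5) to 1.28 to 2.72 CPM and skeletal muscle markers (2 of 4) to 1.44 to 35.9 CPM over the 8 libraries, and no listed marker was at 0 reads in all libraries. These markers move with the groups compared below, and their part in the results was not tested. In bulk RNA, fewer cells of a type and less RNA per cell cannot be told apart.

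The sequences before the start of 4 of the 9 genes are shown, those with a matched promoter whose window holds no annotated exon. In *siNcor1* from day 3 to day 6 *Tgfb1* and *Tgfbr2* rose, *Tgfbr1* fell and *Tgfb2* did not pass the test. A link between these courses and the sequences was not tested. RefSeq promoters (GRCm38.p6) were matched for 5 of the 9 genes, the fifth being *Ltbp2*, whose window overlaps an annotated exon and is not printed. Each sequence is the 250 bases before the RefSeq start, written 5′ to 3′ on the strand of the gene, in lower case with motif matches on either strand in capitals. They lie at chr7:25686752-25687001 on the plus strand for *Tgfb1*, chr1:186705990-186706239 on the minus strand for *Tgfb2*, chr4:47352972-47353221 on the plus strand for *Tgfbr1*, and chr9:116175364-116175613 on the minus strand for *Tgfbr2*. *Tgfbr1* has 2 RefSeq starts, and the window used is that nearest the start of the GENCODE gene.
Tgfb1: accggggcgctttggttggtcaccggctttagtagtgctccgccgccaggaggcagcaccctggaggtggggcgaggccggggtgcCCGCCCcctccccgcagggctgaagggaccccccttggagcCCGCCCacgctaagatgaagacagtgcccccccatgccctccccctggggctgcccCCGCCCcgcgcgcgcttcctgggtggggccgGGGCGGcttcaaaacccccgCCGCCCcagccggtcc
Tgfb2: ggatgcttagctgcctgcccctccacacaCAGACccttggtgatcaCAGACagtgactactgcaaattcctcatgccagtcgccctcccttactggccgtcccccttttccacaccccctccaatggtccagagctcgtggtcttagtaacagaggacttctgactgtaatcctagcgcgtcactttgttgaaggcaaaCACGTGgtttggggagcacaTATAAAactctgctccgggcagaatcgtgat
Tgfbr1: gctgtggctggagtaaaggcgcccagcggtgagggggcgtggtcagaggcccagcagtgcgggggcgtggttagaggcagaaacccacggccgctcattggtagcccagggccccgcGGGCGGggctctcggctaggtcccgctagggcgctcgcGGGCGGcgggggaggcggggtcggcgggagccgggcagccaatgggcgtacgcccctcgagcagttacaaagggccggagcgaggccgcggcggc
Tgfbr2: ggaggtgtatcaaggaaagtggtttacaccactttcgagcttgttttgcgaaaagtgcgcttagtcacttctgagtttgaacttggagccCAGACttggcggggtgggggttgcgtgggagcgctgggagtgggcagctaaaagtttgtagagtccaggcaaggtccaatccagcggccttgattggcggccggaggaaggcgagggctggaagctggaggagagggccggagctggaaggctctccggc

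The motifs searched were the SMAD box CAGAC, the MYC E-box CACGTG, the octamer ATGCAAAT, the GC box GGGCGG and the TATA box TATAAA, and no printed base lies in matches of 2 motifs. The *Tgfb1* window held 5 GC boxes, at 164, 123, 67, 36 and 16 bases before the start, and the *Tgfbr1* window held 2, at 133 and 95 bases. In the *Tgfb2* window there were 2 SMAD boxes, at 221 and 204 bases, an E-box at 51 bases and a TATA box at 31 bases. The *Tgfbr2* window held 1 SMAD box, at 160 bases. Of 32851 windows of the same length over all genes, 42.2% held the SMAD box, 32.7% the GC box, 12.4% the TATA box, 6.02% the E-box and 1.60% the octamer, which was in none of the 5 windows matched. GC content was 75.2% for *Tgfb1*, 74.8% for *Tgfbr1*, 58.4% for *Tgfbr2* and 53.6% for *Tgfb2*, beside a median of 52.4% for all windows. A match is a description of the letters and not a measured site.

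At day 6 each of the 9 genes had lower values in libraries labelled *siOct4* than under *siNcor1*, and for each of the 9 the libraries of the groups did not overlap. With limma and Benjamini-Hochberg adjustment over the 13866 genes at 0.05, 8 of the 9 passed as lower, and *Tgfbr1* did not. The same test called 30.7% of all genes, with 18.6% of all genes as lower, and 34.8% of all genes were lower without overlap. The median log2 fold change of the 9 was −0.95, with a range from −1.31 to −0.42, and the median of all genes tested was −0.03. Of all genes called at day 6, 39.5% were higher in libraries labelled *siOct4*, and 27.5% were with library totals that have no normalization factor, and the same count of 8 lower genes held for the TGF-β genes under that scaling. On day 3, by contrast, 7 of the 9 had higher values in libraries labelled *siOct4* and 1, *Ltbp2*, passed the test as higher, where 1.07% of all genes were called, 0.375% as higher, and 10.5% had an unadjusted p under 0.05. At that day the median of the 9 was 0.49, with a range from −0.08 to 0.72, and that of all genes was −0.02.

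**Figure D1:**
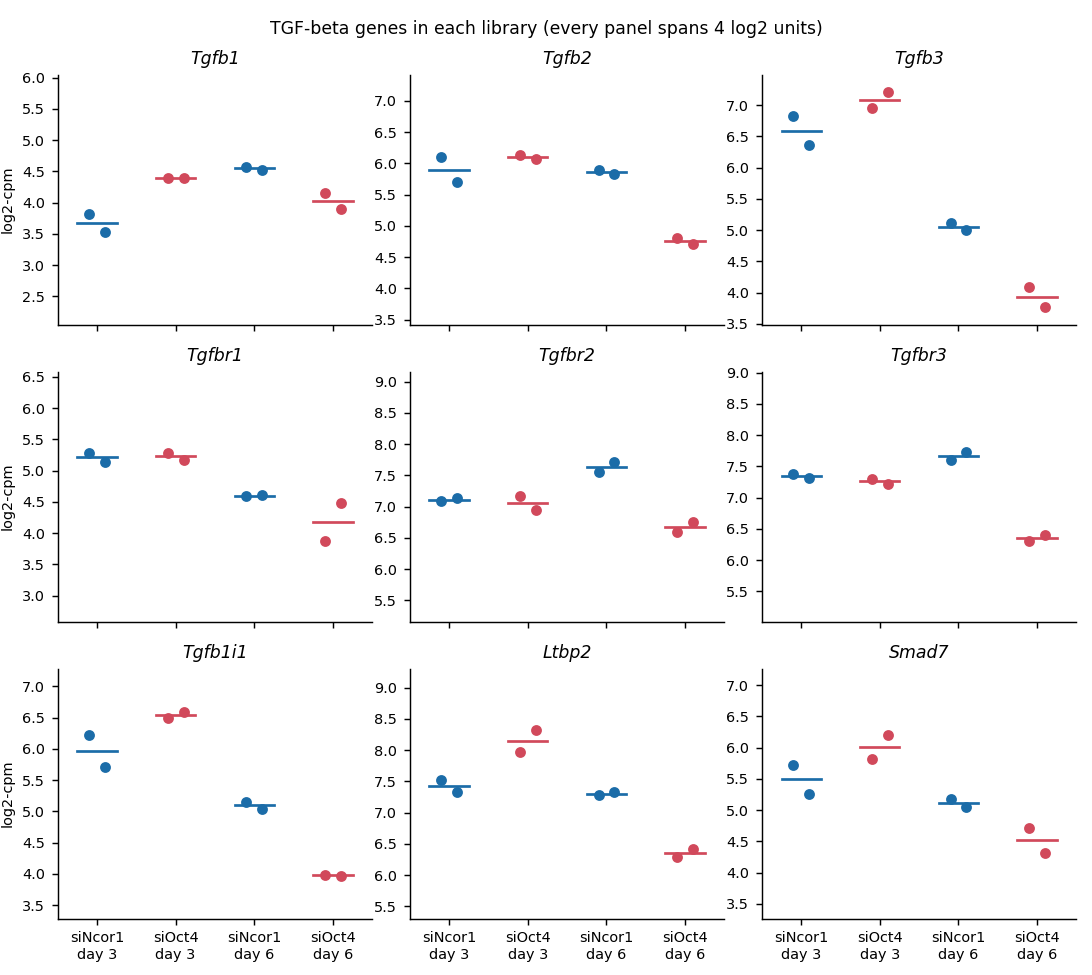
Level of each of the 9 genes in log2-cpm (vertical axis) in the 4 groups (horizontal axis), with a point for each of the 2 libraries of a group and a line at their mean, each panel spanning the same number of log2 units. In libraries labelled *siOct4* at day 6 all 9 genes lie below both *siNcor1* libraries of the same day.

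The ligand *Tgfb1* encodes the TGF-β isoform most widely made by mesenchymal and blood cells. It was at 3.83 and 3.53 log2-cpm in *siNcor1* and 4.40 and 4.40 in libraries labelled *siOct4* at day 3, and at 4.57 and 4.53 and at 4.15 and 3.91, respectively, at day 6. The *siNcor1* libraries were therefore the lowest of the 8 at day 3 and the highest at day 6, with no overlap between the knockdowns on either day. Its rise in *siNcor1* from day 3 to day 6 was 0.87 ± 0.16 (log2, SE), a 1.83-fold increase (adjusted p = 0.0018 by limma). In libraries labelled *siOct4* the change was −0.37 ± 0.16 (adjusted p = 0.0684 by limma), which passed the threshold without replicate 1 of the libraries labelled *siOct4* at day 6 (−0.50, adjusted p = 0.0320 by limma) and with unnormalized totals, with adjusted p in a range of 0.032 to 0.244 over the alternatives. The difference between the knockdowns was 0.72 at day 3 (95% interval 0.37 to 1.07, adjusted p = 0.0574 by limma) and −0.52 at day 6 (adjusted p = 0.0291 by limma). At day 3 it passed the threshold without replicate 1 or 2 of the libraries labelled *siOct4* at day 6 (0.72 in both cases, adjusted p = 0.0179 and 0.0175 by limma) and under 3 other settings, with adjusted p in a range of 0.0175 to 0.537. The day 6 difference did not pass when either *siNcor1* day 6 library was left out (−0.50 and −0.54), without replicate 2 of the libraries labelled *siOct4* (−0.40) or with only the 2 groups in the fit, and its adjusted p by limma ran from 0.0125 to 0.128 over the alternatives.

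*Tgfb2* encodes an isoform that binds TGFBR2 poorly unless the co-receptor TGFBR3 presents it. Its *siNcor1* libraries were at 6.10 and 5.70 log2-cpm at day 3 and 5.89 and 5.84 at day 6, and those labelled *siOct4* were at 6.13 and 6.07 and then at 4.80 and 4.71. The day 6 libraries labelled *siOct4* were the lowest 2 of the 8 by a wide margin, while the other 3 groups lay close together. The change over time in *siNcor1* was −0.04 (95% interval −0.35 to 0.27, adjusted p = 0.867 by limma), and its sign turned under 3 scalings. Libraries labelled *siOct4* showed a decrease, in which the gene fell by 1.35 on the log2 scale (adjusted p = 1.6e-05 by limma), a 2.55-fold decrease. At day 6 the knockdowns differed by −1.11 ± 0.14 (SE), or 2.16-fold (adjusted p = 0.000458 by limma), and at day 3 by 0.20 (95% interval −0.11 to 0.51, adjusted p = 0.733 by limma).

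*Tgfb3*, the isoform that stood highest per length of annotated exons at day 3, encodes a ligand of fibroblasts and of developing epithelia. Levels were 6.82 and 6.36 log2-cpm in *siNcor1* and 6.96 and 7.20 in libraries labelled *siOct4* at day 3, and 5.11 and 5.01 and then 4.09 and 3.78 at day 6. The days did not overlap in either knockdown, and the order of the knockdowns was opposite on the 2 days. The decrease from day 3 to day 6 was 1.53 ± 0.17 (log2, SE) in *siNcor1*, or 2.89-fold (adjusted p = 8.5e-05 by limma). The gene fell in libraries labelled *siOct4* by 3.15 ± 0.17 (log2, SE), which is 8.87-fold (adjusted p = 1.9e-07 by limma) and the largest of the day differences of the 9 genes. At day 6 the knockdown difference was −1.13 (2.18-fold, adjusted p = 0.000959 by limma), and at day 3 it was 0.49 (95% interval 0.12 to 0.86, adjusted p = 0.258 by limma). An exon of *Tgfb3* overlaps *Ttll5* on the other strand, which had 216 to 504 reads, and use of strand in counting is not given in the sources used here. *Ttll5* fell by 0.45 in libraries labelled *siOct4* from day 3 to day 6 (adjusted p = 0.017 by limma) and its knockdown difference at day 6 was 0.05 (adjusted p = 0.829 by limma).

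Among the receptor genes, *Tgfbr1* encodes the type I receptor kinase that Alk5i inhibits. It was at 5.28 and 5.14 log2-cpm in *siNcor1* and 5.29 and 5.17 in libraries labelled *siOct4* at day 3, and at 4.59 and 4.62 and at 3.88 and 4.47 at day 6. The knockdowns overlapped in level at day 3 and both were lower at day 6, and the 2 libraries labelled *siOct4* at day 6 lay further apart than any other pair for this gene. The difference at day 3 was 0.02 (95% interval −0.37 to 0.41, adjusted p = 0.991 by limma), with a sign that turned under 2 scalings. From day 3 to day 6 the gene fell by 1.05 on the log2 scale in libraries labelled *siOct4* (adjusted p = 0.000456 by limma), and by 0.61 in *siNcor1* (adjusted p = 0.0203 by limma). The *siNcor1* change did not pass the threshold when any of the 4 *siNcor1* libraries was left out (−0.68 to −0.54) or without the variance trend, with an adjusted p by limma between 0.00137 and 0.122 over the alternatives. At day 6 the knockdown difference was −0.42 (95% interval −0.81 to −0.03, adjusted p = 0.0926 by limma), and without replicate 2 of the libraries labelled *siOct4* it was −0.72 and passed (adjusted p = 0.0031 by limma), with adjusted p in a range of 0.0031 to 0.538.

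*Tgfbr2*, which encodes the type II receptor that binds the ligand first, was at 7.08 and 7.14 log2-cpm in *siNcor1* and 7.16 and 6.94 in libraries labelled *siOct4* at day 3. At day 6 it was at 7.55 and 7.72 in *siNcor1* and at 6.60 and 6.76 in libraries labelled *siOct4*. The groups overlapped at day 3 and then moved apart, upward in *siNcor1* and downward in libraries labelled *siOct4*. The rise in *siNcor1* was 0.52 (adjusted p = 0.00747 by limma), and it did not pass without replicate 1 at day 3 (0.50, adjusted p = 0.0512 by limma) or without replicate 2 at day 6 (0.44, adjusted p = 0.0808 by limma), the latter being the highest of its alternatives. In libraries labelled *siOct4* the change was −0.37 (adjusted p = 0.0258 by limma). It did not pass without replicate 1 at day 3 (−0.26) or day 6 (−0.29) of these libraries or under 5 other settings, among them quantile normalization (−0.12), and its adjusted p by limma ran from 0.0141 to 0.456. The knockdown difference was −0.06 at day 3 (95% interval −0.33 to 0.22, adjusted p = 0.946 by limma) and −0.95 ± 0.13 (SE) at day 6, or 1.94-fold lower (adjusted p = 0.000499 by limma).

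*Tgfbr3* encodes betaglycan, the co-receptor that presents ligand to the type II receptor. Its log2-cpm values were 7.38 and 7.31 in *siNcor1* and 7.30 and 7.22 in libraries labelled *siOct4* at day 3, and 7.60 and 7.73 and then 6.30 and 6.41 at day 6. The 2 libraries labelled *siOct4* at day 6 stood well below the other 6, and the *siNcor1* libraries of day 6 were the highest of the 8. At day 6 the knockdown difference was −1.31 ± 0.11 (SE), 2.48-fold lower and the largest of the 9 at that day (adjusted p = 0.000109 by limma), against −0.08 at day 3 (95% interval −0.33 to 0.17, adjusted p = 0.907 by limma). Over time the gene fell by 0.91 in libraries labelled *siOct4* (adjusted p = 5.5e-05 by limma). The rise of 0.32 in *siNcor1* was close to the threshold (adjusted p = 0.0456 by limma). It did not pass when any *siNcor1* library (0.26 to 0.39) or either day 3 library labelled *siOct4* (0.32 in both cases) was left out, or under 3 other settings, with an adjusted p by limma between 0.00694 and 0.261. *Tgfbr3* shares its strand with the short model *Gm43422*, which had 7 to 13 reads.

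Of the associated genes, *Tgfb1i1* encodes the focal adhesion protein HIC-5, which TGF-β induces in fibroblasts. It was at 6.22 and 5.71 log2-cpm in *siNcor1* and 6.49 and 6.60 in libraries labelled *siOct4* at day 3, and at 5.16 and 5.04 and at 3.99 and 3.97 at day 6. As for *Tgfb3*, the libraries labelled *siOct4* held both its highest values, at day 3, and its lowest, at day 6. The decrease over time was 5.90-fold in these libraries (fell by 2.56 on the log2 scale, adjusted p = 4.2e-07 by limma). In *siNcor1* it was 1.83-fold (fell by 0.87 on the log2 scale, adjusted p = 0.00184 by limma). The knockdown difference was 0.57 at day 3 (95% interval 0.22 to 0.92, adjusted p = 0.141 by limma) and −1.12 at day 6 (adjusted p = 0.000741 by limma).

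*Ltbp2* encodes a fibrillin-like matrix protein of the latent TGF-β binding family, a member that does not itself bind the latent ligand. The *siNcor1* libraries were at 7.53 and 7.33 log2-cpm at day 3 and 7.29 and 7.33 at day 6, and those labelled *siOct4* were at 7.97 and 8.32 and then at 6.29 and 6.42. The knockdowns did not overlap on either day, and their order turned between the days. At day 3 *Ltbp2* was 1.64-fold higher in libraries labelled *siOct4* (log2 difference 0.71 ± 0.14, SE, adjusted p = 0.0296 by limma). That call was lost without replicate 1 or 2 of *siNcor1* at day 3 (0.81 and 0.62), replicate 1 or 2 of *siNcor1* at day 6 (0.71 in both cases) or replicate 2 of the libraries labelled *siOct4* at day 3 (0.54), without the variance trend and with unnormalized totals. Its adjusted p by limma ran from 0.00934 to 0.389 over the alternatives. At day 6 the gene was 1.93-fold lower in libraries labelled *siOct4* (log2 difference −0.95, adjusted p = 0.000772 by limma). It fell by 1.79 over time in these libraries, or 3.45-fold (adjusted p = 1.9e-06 by limma), and changed by −0.12 in *siNcor1* (95% interval −0.42 to 0.18, adjusted p = 0.521 by limma), where quantile normalization turned the sign. The antisense gene *D030025P21Rik*, which overlaps an exon of *Ltbp2*, had 14 to 50 reads, and *Ltbp2* had 739 to 3691.

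*Smad7* encodes the inhibitory SMAD that TGF-β signalling itself induces and that targets the type I receptor for degradation. Its values were 5.72 and 5.26 log2-cpm in *siNcor1* and 5.81 and 6.21 in libraries labelled *siOct4* at day 3, and 5.18 and 5.06 and then 4.72 and 4.32 at day 6. The *siNcor1* days were next to each other without overlap, and the libraries labelled *siOct4* went from the highest values to the lowest. In the latter the gene fell by 1.49 on the log2 scale (2.81-fold, adjusted p = 6.5e-05 by limma), and in *siNcor1* the change was −0.37 (95% interval −0.79 to 0.05, adjusted p = 0.157 by limma). At day 3 the knockdown difference was 0.52 (95% interval 0.10 to 0.94, adjusted p = 0.300 by limma). The day 6 difference of −0.60 passed the threshold (adjusted p = 0.0343 by limma), but not without replicate 1 or 2 of *siNcor1* at day 6 (−0.54 and −0.67), without replicate 2 of the libraries labelled *siOct4* at day 6 (−0.40) or without the variance trend, with adjusted p in a range of 0.0111 to 0.148.

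**Figure D2:**
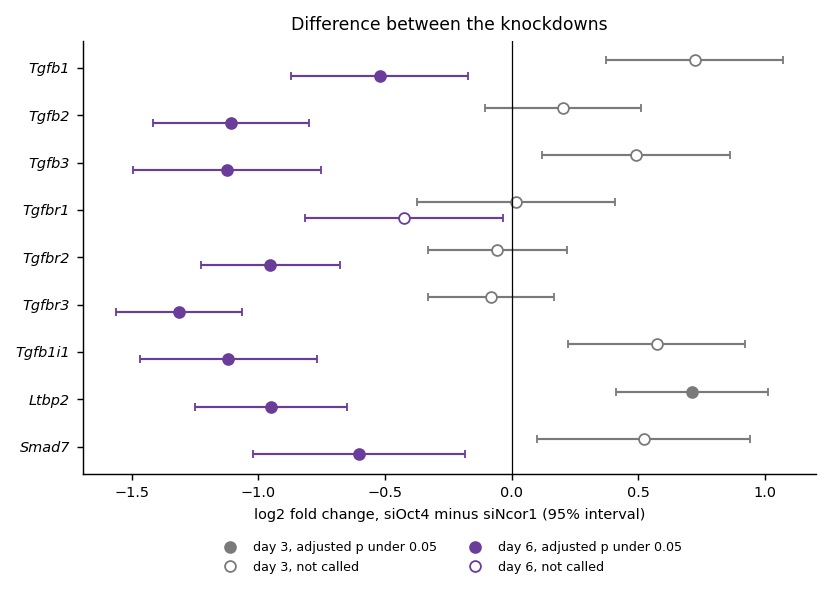
Difference of the libraries labelled *siOct4* minus *siNcor1* in log2-cpm (horizontal axis) for each of the 9 genes (vertical axis) at day 3 and day 6, with 95% intervals from limma as bars and filled points for an adjusted p under 0.05. The day 3 values lie between −0.08 and 0.72 and the day 6 values between −1.31 and −0.42.

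Over time the knockdowns took different courses. All 9 genes in libraries labelled *siOct4* had lower values at day 6 than at day 3 without overlap, as did 42.1% of all genes, and 8 passed the test as lower, all except *Tgfb1*. For that comparison 52.7% of all genes were called, 22.2% as higher and 30.5% as lower, and the median log2 fold change was −1.35 for the 9 and −0.08 for all genes. Of all genes called, 42.1% were higher at day 6, and 52.5% were when *Gm26917* was left out of the library totals, a scaling that moved the median of all genes by 0.134 and left 7 of the TGF-β genes as called. In *siNcor1* 6 of the 9 passed, beside 34.8% of all genes (13.8% as higher and 20.9% as lower): *Tgfb1*, *Tgfbr2* and *Tgfbr3* rose, and *Tgfb3*, *Tgfbr1* and *Tgfb1i1* fell. The median of the 9 in *siNcor1* was −0.12, near the median of −0.07 for all genes. Without replicate 1 at day 3 or replicate 2 at day 6 of *siNcor1* the count was 3.

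The difference between these courses was tested as an interaction of knockdown and day. It passed the test for 8 of the 9 genes, each time as a lower knockdown difference at day 6 than at day 3, where 20.7% of all genes were called and 12.9% as lower. The interaction was −1.69 for *Tgfb1i1*, −1.66 for *Ltbp2*, −1.62 for *Tgfb3*, −1.31 for *Tgfb2*, −1.24 for *Tgfb1*, −1.23 for *Tgfbr3*, −1.12 for *Smad7* and −0.90 for *Tgfbr2* on the log2 scale. For *Tgfbr1* it was −0.44 (95% interval −0.99 to 0.11, adjusted p = 0.235 by limma), and it passed without replicate 2 of the libraries labelled *siOct4* at day 6 (−0.74, adjusted p = 0.0138 by limma), with adjusted p in a range of 0.0138 to 0.604. The interaction of *Smad7* (adjusted p = 0.0148 by limma) did not pass without replicate 2 of *siNcor1* at day 3 (−0.89), replicate 1 of *siNcor1* at day 6 (−1.06) or replicate 2 of the libraries labelled *siOct4* at day 3 (−0.93), or without the variance trend, with adjusted p in a range of 0.00358 to 0.0893. The 5 comparisons share libraries, so their results are not independent of each other.

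**Figure D3:**
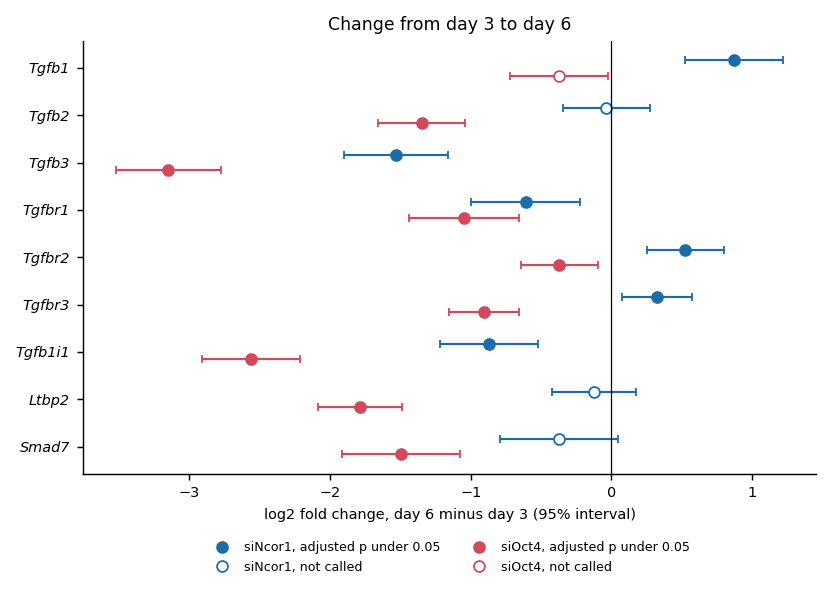
Change from day 3 to day 6 in log2-cpm (horizontal axis) for each of the 9 genes (vertical axis) in *siNcor1* and in libraries labelled *siOct4*, with 95% intervals from limma as bars and filled points for an adjusted p under 0.05. The *siNcor1* values run from −1.53 to 0.87 on both sides of 0, and those labelled *siOct4* from −3.15 to −0.37.

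To compare levels between genes, CPM was divided by the length of the annotated exons in kilobases. That length joins all annotated exons of a gene and can exceed the length of the transcripts present. The order of genes and the ligand shares below depend on it. *Tgfb3* was the highest of the 9 at day 3, with 28.8 ± 6.49 CPM per kb (SD, n = 2) in *siNcor1* and 40.2 ± 4.74 in libraries labelled *siOct4*, and *Tgfb1* was the lowest, with 2.53 ± 0.367 and 4.17 ± 0.00167. At the top of the order *Tgfb3* overlapped its neighbour *Tgfbr3* in *siNcor1* and *Ltbp2* in libraries labelled *siOct4*. By day 6 the receptors led. *Tgfbr3* stood at 31.1 ± 2.02 CPM per kb and *Tgfbr2* at 24.3 ± 2.04 in *siNcor1*, without overlap, while *Tgfbr2* at 12.5 ± 0.983 and *Tgfbr3* at 12.5 ± 0.647 overlapped in libraries labelled *siOct4*. *Tgfbr1* was the lowest in *siNcor1* at day 6, with 3.69 ± 0.0543 CPM per kb. The last 3 places of libraries labelled *siOct4* at day 6 were those of *Tgfb1* (3.22 ± 0.392), *Tgfbr1* (2.80 ± 0.810) and *Tgfb1i1* (2.80 ± 0.0268), in which each neighbouring pair overlapped.

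The make-up of the ligand transcripts shifted between the days in both knockdowns. *Tgfb3* held 69.0% ± 0.899 (SD, n = 2) of the length-scaled ligand sum in *siNcor1* at day 3 and 40.2% ± 0.683 at day 6, and 71.4% ± 2.89 and 36.4% ± 1.81 in libraries labelled *siOct4*. The share of *Tgfb1* went from 6.10% ± 0.417 to 18.9% ± 0.263 in *siNcor1* and from 7.44% ± 0.575 to 26.0% ± 0.437 in libraries labelled *siOct4*, without overlap between the days. *Tgfb2* made up 24.9% and 21.1% at day 3 and 41.0% and 37.6% at day 6, in the same order of knockdowns. The sums that follow are means in the same order of knockdowns, with the range of the 2 libraries in parentheses. Summed over the 3 ligands the level was 41.7 (35.4 to 48.0) and 56.2 (53.1 to 59.3) CPM per kb at day 3. At day 6 it was 24.5 (23.9 to 25.1) and 12.4 (11.4 to 13.3). The 3 receptors summed to 47.3 (46.7 to 47.9) and 45.4 (43.3 to 47.5) CPM per kb at day 3. Their sums at day 6 were 59.1 (56.1 to 62.0) and 27.8 (26.1 to 29.6). Thus the ligand sum was lower at day 6 in both knockdowns, and the receptor sum was higher at day 6 in *siNcor1* and lower in libraries labelled *siOct4*, without overlap between the days in any of the 4 cases. These shares and sums are descriptions, with no test.

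**Figure D4:**
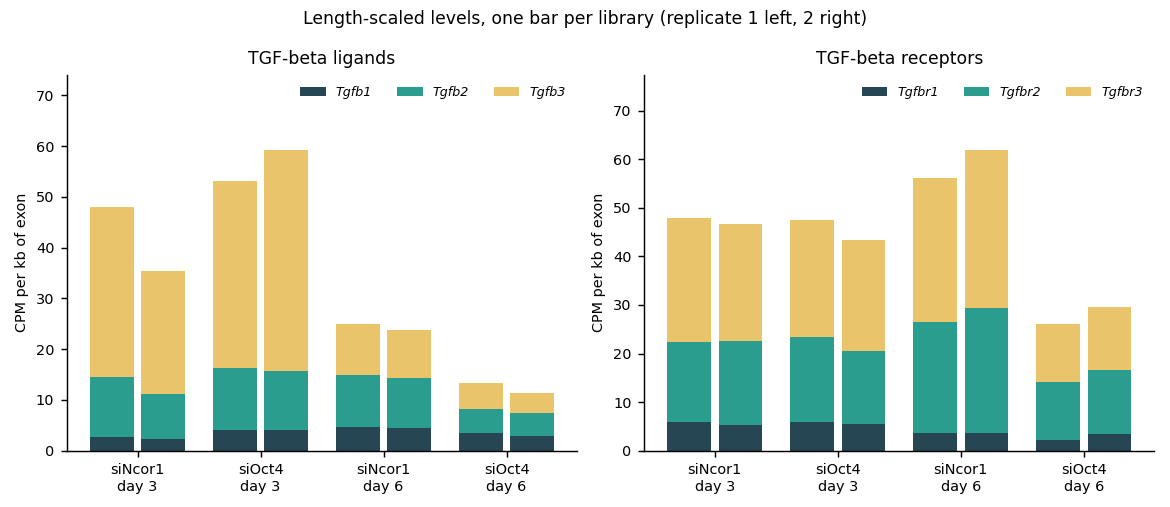
Stacked levels of the 3 ligand genes (left panel) and 3 receptor genes (right panel) in CPM per kb of exon (vertical axis, from 0), with 1 bar for each library in the 4 groups (horizontal axis) and a colour for each gene. *Tgfb3* takes most of the ligand bars at day 3, and the receptor bars of *siNcor1* at day 6 are the tallest, with a mean of 59.1.

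The same limma comparisons were made for 5 lists of other pathway genes, of which 63 of 68 genes could be tested, and values in parentheses are log2 fold changes. Transcripts for proteins that hold TGF-β latent or release it were lower at day 6 in libraries labelled *siOct4* for 11 of 12 genes tested, beside 18.6% of all genes (medians −0.75 and −0.03). The largest differences were those of *Thbs1* (−1.41), which encodes the activator thrombospondin 1, *Lrrc32* (−1.34), which encodes the surface anchor GARP, and *Ltbp3* (−1.04), whose product binds the latent ligand. The exception, *Ltbp4*, was at −0.09. At day 3 the count by limma was 0 of 12, with 5 at an unadjusted p under 0.05 (10.5% of all genes). In *siNcor1* over time the counts were near the shares over all genes of 13.8% higher and 20.9% lower: 2 rose (*Ltbp4* by 0.85 and *Ltbp3* by 0.39) and 2 fell (*Thbs1* at −1.19 and *Fbn1* at −0.98). The rises were both lost without replicate 2 of *siNcor1* at day 3, and 1 was left without either *siNcor1* day 6 library or either day 3 library labelled *siOct4*. In libraries labelled *siOct4* 11 of the 12 fell over time, beside 30.5% of all genes. *Ltbp4* rose by 0.57 there, a call lost without replicate 2 at day 3 or replicate 1 at day 6 of these libraries. *Nrros* and *Itgb6* were below the filter.

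Of 6 co-receptor genes, 4 were lower at day 6 in libraries labelled *siOct4*, where 18.6% of all genes were: the neuropilins *Nrp1* (−0.95) and *Nrp2* (−0.63), *Vasn* (−0.85), whose product traps ligand, and *Cd109* (−0.40), a co-receptor that inhibits signalling. *Bambi*, a decoy without kinase (−0.54), and *Eng* (−0.40) did not pass at day 6. The call of *Cd109* was close to the threshold (adjusted p = 0.0455 by limma), and fewer genes passed in most fits with a library left out. At day 3 limma called 0 of the 6, with 3 at an unadjusted p under 0.05, beside 1.07% and 10.5% of all genes. Over time *Cd109* fell in *siNcor1* (−0.95), 1 of the 6 beside 20.9% of all genes, and quantile normalization called 3 genes there. In libraries labelled *siOct4* all 6 fell, beside 30.5% of all genes, led by *Nrp1* (−1.67). Fewer passed without replicate 2 of these libraries at day 3 or at day 6.

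Of the SMADs and their regulators 4 of 17 were lower at day 6 in libraries labelled *siOct4*, close to the 18.6% of all genes, with a median of −0.09 beside −0.03 for all genes. At day 3 limma called 0 of the 17, with 1 at an unadjusted p under 0.05, beside 1.07% and 10.5% of all genes. The 4 lower at day 6 were *Ldlrad4* (−0.74) and *Pmepa1* (−0.61), which encode feedback inhibitors, *Smad6* (−0.65), an inhibitory SMAD, and *Smad3* (−0.43). The count was 0 without either *siNcor1* day 6 library or replicate 2 of the libraries labelled *siOct4* at day 6. It was 2 without the filter on low values or without either day 3 library labelled *siOct4*. In *siNcor1* over time 7 of the 17 fell, beside 20.9% of all genes, and *Tgif1*, a SMAD corepressor, rose by 0.46. The lower count was 3 and 5 without replicates 1 and 2 of *siNcor1* at day 3, and 2 and 4 without replicates 1 and 2 of *siNcor1* at day 6, and *Tgif1* was not called in the last 3 of these. Over time 12 fell in libraries labelled *siOct4*, beside 30.5% of all genes, and *Tgif2* rose by 0.79. The lower count was 7 without replicate 1 of these libraries at day 6 and 8 without replicate 1 or 2 at day 3, and the rise was lost without replicate 1 at day 3. Quantile normalization called 5 genes in all in *siNcor1* and 8 in libraries labelled *siOct4*.

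Genes that the fibroblast TGF-β response is known for were lower at day 6 in libraries labelled *siOct4* for 14 of 16, beside 18.6% of all genes, with a median of −0.87 (−0.03 for all genes). The leading ones were *Ctgf* (−2.11), which encodes a matricellular growth factor, and the contractile genes *Tagln* (−1.67), which had 1 and 7 reads in libraries labelled *siOct4*, and *Acta2* (−1.46). *Junb* (−0.32) and *Postn* (−0.27) did not pass, and fewer genes of the list passed without either *siNcor1* day 6 library. At day 3 the median was 0.48, beside −0.02 for all genes. By limma 2 of 16 passed as higher, beside 0.375% of all genes, and 10 had an unadjusted p under 0.05, 1 of them lower, beside 10.5% of all genes. *Cnn1* (0.97), which encodes the contractile protein calponin, was among those 2, and the count was 0 without any 1 of the 4 day 3 libraries and 4 without either day 6 library labelled *siOct4*. Its difference ran from 0.76 to 1.17 in the 4 former cases, and its call was also lost without the variance trend. Over time 13 fell in libraries labelled *siOct4*, beside 30.5% of all genes, among them *Ctgf* (−5.32) and *Tagln* (−4.45). In *siNcor1* 9 fell, beside 20.9% of all genes, led by *Ctgf* (−2.43), *Cnn1* (−2.17) and *Acta2* (−2.15), and 3 rose, *Cdkn2b* (0.84), *Col3a1* (0.58) and *Cdkn1a* (0.40), beside 13.8% of all genes. The number that rose was 1 without replicate 1 of *siNcor1* at day 3 or either *siNcor1* day 6 library. The summed level of the fibroblast markers, given above, was lower in libraries labelled *siOct4* at day 6 too, although *Col1a1* and *Col1a2* are also in this list, and its part in these counts was not tested.

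The related activin and nodal genes, whose receptors use the same SMADs, were split. At day 6, 5 of 12 were lower in libraries labelled *siOct4*, where 18.6% of all genes were: *Tdgf1* (−1.75), which encodes the nodal co-receptor Cripto, *Inhba* (−1.13) and *Inhbb* (−0.82), which encode activin subunits, *Gdf11* (−1.01) and *Fst* (−0.81), which encodes the activin inhibitor follistatin. *Acvr2b*, an activin type II receptor gene, was higher (0.97), and no gene of the list was called higher without replicate 2 of *siNcor1* at day 6. *Inhba* was the single gene of this list called at day 3 (0.80). That call was lost without any 1 of the 4 day 3 libraries (0.70 to 0.89) or either *siNcor1* day 6 library (0.80 in both cases), without the filter on low values, with a mean of at least 10 CPM, without the variance trend and with unnormalized totals. Over time limma called 4 of the 12 as higher and 2 as lower in *siNcor1*, beside 13.8% and 20.9% of all genes. In libraries labelled *siOct4* it called 4 as higher and 4 as lower, beside 22.2% and 30.5% of all genes. There *Inhba* went from 7.34 and 7.49 log2-cpm at day 3 to 4.09 and 4.50 at day 6. *Tdgf1* had 0 and 3 reads in *siNcor1* at day 3 and 153 and 226 at day 6, a ratio of 176 (95% exact interval 59.7 to 856, counting error only). In libraries labelled *siOct4* it had 0 reads in both at day 3 and 43 and 53 at day 6, at least 15.5-fold higher against a floor of 3 reads per library. *Nodal* also rose, by 2.08 in *siNcor1* and 2.85 in libraries labelled *siOct4* (adjusted p = 0.0012 and 5.1e-05 by limma), in the latter from 4 and 3 reads at day 3.

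**Figure D5:**
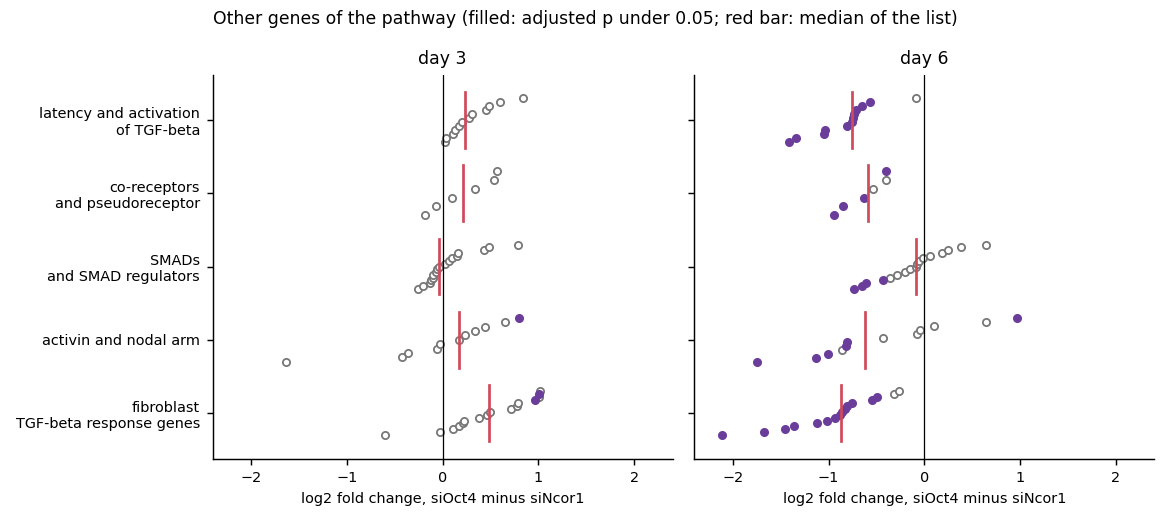
Log2 fold change (horizontal axis) of libraries labelled *siOct4* against *siNcor1* at day 3 (left) and day 6 (right) for the tested genes of the 5 pathway lists (vertical axis), with a point for each gene, filled for an adjusted p under 0.05, and a red bar at the median. *Tdgf1*, with at most 3 reads in each day 3 library, is not drawn in the left panel, and the day 6 medians lie at −0.75 for latency and activation, −0.58 for co-receptors, −0.09 for SMADs and regulators, −0.62 for the activin and nodal arm and −0.87 for the fibroblast response.

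The genes whose levels over the 8 libraries were most like those of each TGF-β gene were found by Pearson correlation over all tested genes, as a description of 4 groups of 2 libraries that share days and knockdowns. For *Tgfb3* they were *Dlc1* and *Nid2* (r = 0.998 for both), for *Tgfb2* *Ttyh3* and *Pld1* (0.997 for both) and for *Tgfb1* *Cyba* (0.971) and *4921536K21Rik* (0.953). *Tgfbr1* was most like *Cyp20a1* (0.997) and *Nipal4* (0.996), *Tgfbr2* like *Ptpra* (0.983) and *H19* (0.979), and *Tgfbr3* like *Tnfrsf1a* (0.990) and *Thrb* (0.989). For the associated genes they were *Axl* and *Sidt2* with *Tgfb1i1* (0.997 for both), *Dysf* (0.997) and *Bicd2* (0.995) with *Ltbp2*, and *Tns1* (0.992) and *Plxna1* (0.990) with *Smad7*. Among the 9 genes themselves *Tgfb3* and *Tgfb1i1* were the most alike (r = 0.990), *Tgfbr2* and *Tgfbr3* had 0.904, and *Tgfb1* had between −0.178 and 0.470 with each of the other 8.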

How the data were processed

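RNA-seq was measured in 8 libraries, 2 biological replicates of each of the 4 groups. The authors aligned reads to mm10 with STAR 2.5.2b and deposited log2-cpm values made with edgeR 3.20.9, per the submitters' processing notes. The counting tool and its use of strand are not given in the sources used here. Subtraction of a constant of 0.136 CPM gave whole reads for 100% of the deposited log2 values within 0.1 read, and 3 reads were worth 0.174 to 0.380 CPM. Replicates of a group differed beyond counting noise, with a chi-square of 9.48 to 21.3 per degree of freedom, and were counted separately. Whether same-numbered replicates share cells is not stated, and intervals from reads cover counting error only.

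Genes whose mean reached 1 CPM were tested with limma 3.58.1 in R 4.3.3 (lmFit, eBayes with trend) on the deposited log2 values, in 1 fit of all groups, two-sided, with Benjamini-Hochberg adjustment at 0.05. The main fit used the deposited log2 values and not a count model, and voom on the recovered reads was among the alternatives. For 18969 genes coordinates and exon lengths came from GENCODE M21 (GRCm38). The members and gene lists were chosen with earlier results of these data known. All 9 genes are named, as are up to 3 called genes of each list in each direction with the largest log2 fold change, all genes of a count of 5 or fewer, and the 2 most correlated genes. For the activin and nodal list over time, not all called genes are named. The values of 1 listed gene are not reported here. *Col1a1* and *Col1a2* are in both the fibroblast marker and the response list. The test of the day 6 comparison was run on simulated reads with 67, 62 and 71 genes changed by 0.5, 1 and 2 on the log2 scale. It recovered 0%, 67.7% and 100% of them, and 3 of 116 calls were false. The simulation gave all genes the same spread and changed far fewer genes than the 30.7% called in the data at day 6. These rates therefore need not hold for the real comparison. Beside leaving out each library, 11 alternatives were tried, 3 of which (unnormalized totals, centring on the median and a mean of at least 10 CPM) were added after seeing the data. Figures were drawn with matplotlib 3.10.9.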

Additional observations from a re-analysis of the deposited data

Results flagged for a closer look

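The difference between the libraries labelled *siOct4* and *siNcor1* was not the same on day 3 and day 6 for 8 of the 9 genes, by the limma test of the knockdown by day interaction (adjusted p from 0.000634 to 0.0148). On the log2 scale the day 6 difference minus the day 3 difference was −1.24 for *Tgfb1*, −1.31 for *Tgfb2*, −1.62 for *Tgfb3*, −0.90 for *Tgfbr2*, −1.23 for *Tgfbr3*, −1.69 for *Tgfb1i1*, −1.66 for *Ltbp2* and −1.12 for *Smad7*.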

How the results depend on the processing

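Of 486 values recomputed under the 11 settings other than left-out libraries, 462 kept their direction and side of the threshold, 14 lost the threshold, 4 gained it and 6 changed sign, and of 360 with a library left out these numbers were 323, 28, 5 and 4. A left-out library from outside the groups compared cannot move the log2 fold change and reaches only its adjusted p, so part of those 360 values could not change sign. The count of the 9 genes called at day 3 was 1 in the fit reported, 2 with centring on the median, with voom on recovered reads and with the replicate block, and 0 with no trend and with totals that have no normalization factor. With a library left out it was 0 to 2. At day 6 that count ran from 6 to 8, in *siNcor1* over time from 3 to 6, in libraries labelled *siOct4* over time from 7 to 8, and for the interaction from 7 to 9. The sign turned for *Tgfbr1* at day 3 with totals that have no normalization factor (−0.016) and totals without *Gm26917* (−0.025), and with a library left out the value ran from −0.053 to 0.086. For *Tgfbr2* at day 3 a library left out gave −0.17 to 0.053. For *Tgfb2* in *siNcor1* over time it turned with centring on the median (0.0056), quantile normalization (0.12), totals without *Gm26917* (0.040) and a left-out library (−0.23 to 0.16). For *Ltbp2* in *siNcor1* over time it turned with quantile normalization (0.031). None of these 4 passed the threshold in the fit reported, and the cause was not tested. Whether the replicate numbers pair the libraries is not stated, so the number was not used as a pairing. The correlation of deviations of same-numbered libraries ran from −0.0395 to 0.281, which does not settle whether they are paired. With the number as a block more genes were called in every comparison, with 4698 in place of 4251 at day 6 and 3395 in place of 2867 for the interaction. At day 3 it called 222 genes in place of 148. Among them were 5 in place of 2 of the fibroblast response, 2 in place of 1 of the activin and nodal genes and 1 in place of 0 of the latency genes. Depth limits *Tdgf1* and *Nodal* at day 3, and 2 libraries a group limit all tests.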
